A study of Homo sapiens with 24 samples.

Results

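The arrays described here are the 3 titled PKR and the 5 titled PAR, 8 of the 24 arrays of the series, chosen by the line named in their titles. The samples are HAP1 cells, a near-haploid human line that descends from the leukaemia line KBM-7. PAR is the parental line. PKR is an edited line, and all lines came from Horizon Discovery. The design text writes it as ΔPKR, a line without the kinase PKR, whose gene is EIF2AK2, and says that its mutation was sequenced, but it gives neither the mutation nor the number of clones. The other edited lines, used here only for comparison, are named after the kinases HRI, GCN2 and PERK and after S51A, a change in eIF2-alpha. Treatment lasted 2 h, with lomustine, a DNA-alkylating nitrosourea, at 200 µM or with the agent titled SA100, and the third arm had no drug. For the latter the treatment text gives sodium arsenite at 100 µM, while the agent field of the SA100 arrays reads lomustine, so the arm is called SA100 here. PAR has 2 arrays without drug, 2 with lomustine and 1 with SA100, and PKR has 1 array in each arm. The comparison asks how the line that should lack PKR differs from its parent whatever the treatment.

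PKR is a kinase that double-stranded RNA switches on. It phosphorylates eIF2-alpha, the subunit of the translation initiation factor that also serves the kinases HRI, PERK and GCN2, and so slows protein synthesis and starts the integrated stress response. Its gene is an interferon target in many tissues, and PKR is best known for its part in antiviral defence.

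Values are the deposited RMA log2 intensities, with 1 probe set per gene, and 1 log2 unit is a 2-fold difference. Array medians over all probe sets lay between 2.34 and 2.58 on the 24 arrays, and the median of all values, 2.42, was taken as the level of a probe set with little or no signal. Of 22395 genes, 17526 reached that level on at least 2 of the 24 arrays and were tested. The labels do not say that arrays of a group came from separate cultures, so p-values measure the spread between these arrays. Blood lineage genes were mixed. PTPRC, the gene of CD45, lay between 1.61 and 1.77 on the 8 arrays and HBB, the beta-globin gene, between 1.40 and 1.77, while the regulators GATA2, LYL1 and GATA1 had medians of 4.43, 4.35 and 3.80. Of 21 blood markers, 8 had a median below 2.42, and their summed level was 55.4 to 59.4 on PAR arrays and 57.2 to 59.2 on PKR arrays. Of 16 epithelial markers 5, of 18 fibroblast markers 7 and of 16 endothelial and neural markers 3 had a median below 2.42, with sums of 44.1 to 48.1, 56.8 to 57.9 and 51 to 53.3 on PAR arrays and 45.2 to 46.7, 56.0 to 57.0 and 52.7 to 55.7 on PKR arrays. SOX2 and NES, genes of neural progenitors and other stem cells, were measured well above that level, at 5.35 to 6.39 and 5.46 to 6.96. They were the highest of their list, whose other neural genes had medians from 1.94 (STMN2) to 4.28 (SOX10). Some genes of the fibroblast and epithelial lists were high too, with medians of 6.64 for CDH2, 5.89 for FN1, 5.34 for VIM and 5.04 for CLDN3. The markers thus pointed to no single cell type.

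The targeted gene was measured on every array. EIF2AK2 was at 7.89 and 7.72 on the PAR arrays without drug, 7.32 and 7.62 with lomustine and 7.27 with SA100. On the PKR arrays it was at 7.79 without drug, 7.55 with lomustine and 6.74 with SA100. The first 2 PKR arrays lay within the range of the PAR arrays, and the array titled PKR SA100 was the second lowest of 24. Over all arms PKR minus PAR was -0.12 (SE 0.17, limma, adjusted p = 1), and without the array titled PKR SA100 it was 0.03 (SE 0.17). The probe set may lie outside the edited part of the gene, so this level checks nothing about the label.

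The other eIF2-alpha kinase genes were close to their parental levels on the PKR arrays. EIF2AK1, which encodes HRI, was at 7.73, 7.69 and 7.65 without drug, with lomustine and with SA100, against 7.40 to 7.96 on the PAR arrays. EIF2AK4, which encodes GCN2, was at 6.10, 6.21 and 6.14, against 5.76 to 6.40. EIF2AK3, which encodes PERK, was at 3.82, 4.18 and 4.26, against 4.43 and 4.84 on PAR arrays without drug, 4.12 and 4.59 with lomustine and 3.68 with SA100. Without drug, PKR stood below both PAR arrays for EIF2AK1 and EIF2AK3, and with lomustine and SA100 the levels of both overlapped or lay on the other side. The difference of EIF2AK3 over all arms, -0.20 (SE 0.25), did not pass the test, and without the array titled PKR SA100 it was -0.49 (SE 0.24). EIF2S1, the gene of eIF2-alpha itself, was at 6.20, 6.15 and 6.56 on the PKR arrays and 6.13 to 6.80 on the PAR arrays.

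**Figure D1:**
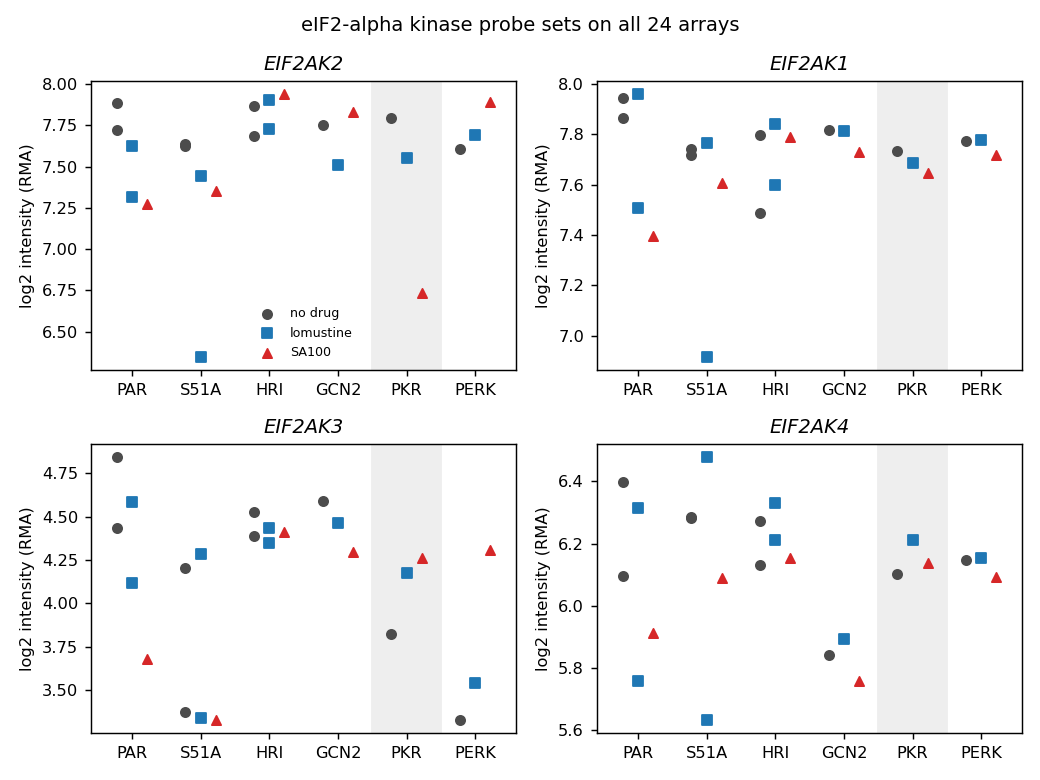
Log2 intensity (RMA) of the 4 eIF2-alpha kinase probe sets on each of the 24 arrays, by line and arm; each point is 1 array and the PKR line is shaded. EIF2AK2 on the PKR arrays without drug (7.79) and with lomustine (7.55) sits among the other arrays, and the array titled PKR SA100 is at 6.74.

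Whether the 3 PKR arrays look like 1 line was described first, because the results below rest on it. For each array, the 500 genes that varied most between lines in the other 2 arms were taken, and the array's deviation from the mean of its arm was correlated with each line's mean deviation in those other arms. All points of an arm share the arm's mean, so r is a description. The PKR array without drug had r = 0.65 with the PERK profile and 0.56 with its own. The PKR array with lomustine had 0.74 with PERK and 0.57 with its own. The array titled PKR SA100 had 0.53 with GCN2, 0.29 with HRI, 0.21 with PAR, 0.15 with PKR and 0.08 with PERK.

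Thus none of the 3 PKR arrays was closest to the profile of its own line. Of the 21 arrays of the other lines, 18 were, namely 5 of 5 S51A, 5 of 5 HRI, 3 of 3 GCN2, 3 of 3 PERK and 2 of 5 PAR arrays. The remaining PAR arrays were all closest to the PKR profile. With PKR and with PAR, r was 0.50 and 0.24 for PAR without drug of repetition B. It was 0.23 and 0.18 for PAR lomustine A and 0.41 and 0.15 for PAR lomustine B. The PKR profile used for the first 2 arrays contains the array titled PKR SA100; against the PKR profile of the other of these 2 arms alone, r was 0.71 for the array without drug and 0.72 for the array with lomustine. These 2 arrays therefore resembled each other and the PERK arrays, and the array titled PKR SA100 resembled neither.

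**Figure D2:**
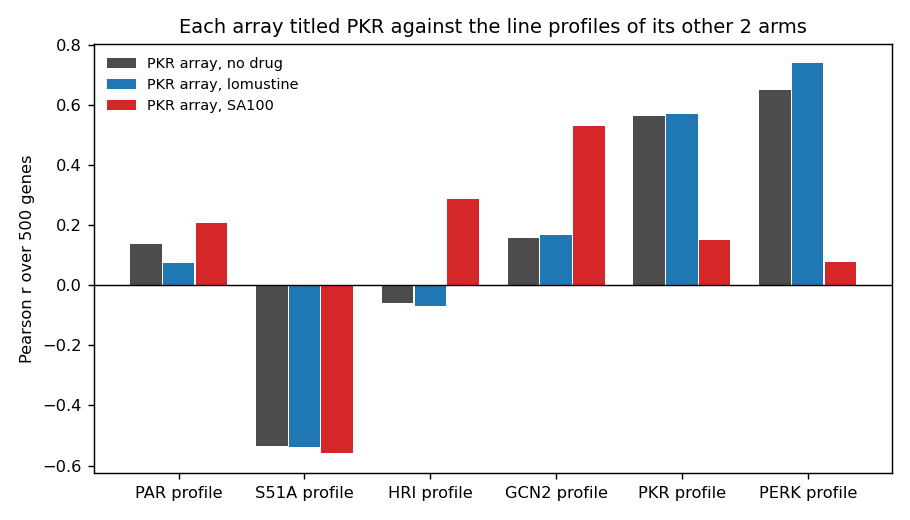
Pearson r over 500 genes between each array titled PKR and the mean profile of each line in the other 2 arms; bars are coloured by the arm of the PKR array. The arrays without drug and with lomustine reach 0.65 and 0.74 with PERK, and the array titled PKR SA100 reaches 0.53 with GCN2 and 0.15 with PKR.

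Single genes separated the arrays too. By level in the no drug and lomustine arms, 3 genes marked the GCN2 line, at least 1 log2 unit beyond all other arrays. TCEAL9, an X-linked gene of a family of transcription elongation factor-like proteins, was the first. It was at 7.01, 6.61 and 7.72 on the GCN2 arrays without drug, with lomustine and with SA100. It was at 2.00 and 2.35 on the PKR arrays without drug and with lomustine and at 7.35 on the array titled PKR SA100. The arrays of PAR, S51A, HRI and PERK lay between 1.61 and 3.06, so the array titled PKR SA100 carried the GCN2 level of this gene. GABRA5, a GABA receptor subunit gene and the second, was at 5.87, 6.03 and 3.77 on the GCN2 arrays, 2.96 and 2.97 on the first 2 PKR arrays and 6.49 on the array titled PKR SA100. PLAAT5, a phospholipase and acyltransferase gene, was at 5.05 and 4.93 on the first 2 PKR arrays and 2.31 on the array titled PKR SA100. It was at 2.17, 2.45 and 2.31 on the GCN2 arrays. It lay at 2.67 to 3.34 on S51A, 2.49 to 4.14 on HRI, 4.98 to 5.75 on PERK and 3.32 to 7.02 on PAR arrays. A low level of PLAAT5 was thus not particular to GCN2.

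SEMA3A, a semaphorin gene and the third marker of the GCN2 line by the same rule, was at 6.08, 5.90 and 3.53 on the GCN2 arrays and at 3.90, 4.07 and 4.12 on the PKR arrays. EGFR, HOOK1 and PSMB8 are the genes called lower in PKR than in GCN2 by a fit that includes the array titled PKR SA100, so their low level there was part of their choice. EGFR, the epidermal growth factor receptor gene, was at 3.23, 3.59 and 3.43 on the GCN2 arrays and at 2.52 on the array titled PKR SA100, near the 2.37 and 2.43 of the other PKR arrays. HOOK1, a gene of a microtubule adaptor, was at 4.65, 4.20 and 4.10 on the GCN2 arrays and at 2.72 there. PSMB8, an immunoproteasome subunit gene, was at 4.12, 4.08 and 3.82 and at 3.24 there. MYOM1, a sarcomere protein gene, was at 4.88 on the array titled PKR SA100, above its 2.41 to 2.89 on the GCN2 arrays, below its 5.15 to 5.84 on the HRI arrays and below its 5.49 on PAR SA100. This array matched no line of the series in every gene named here, and the PKR minus PAR values below that rest on all 3 PKR arrays are followed by those without it. These genes were chosen after their values were seen.

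The promoters of the targeted gene and of 3 genes named in these results are shown. SERPINB9 and TCEAL9 separate the PKR arrays from each other, and EPHA3 separates them from the PAR arrays. The promoters differ in CpG content, on which methylation acts, but methylation was not measured and its part was not tested. The sequences are the 250 bases before the transcription start in RefSeq (GRCh38.p14), written 5′ to 3′ on the gene's strand, with each CpG in capitals. EIF2AK2 (chr2:37156981-37157230, reverse strand) has 22 CpG, SERPINB9 (chr6:2903310-2903559, reverse strand) 27, EPHA3 (chr3:89107371-89107620, forward strand) 15 and TCEAL9 (chrX:103356256-103356505, forward strand) 8, against a median of 19 over the 12832 tested genes with a promoter in the table.
EIF2AK2: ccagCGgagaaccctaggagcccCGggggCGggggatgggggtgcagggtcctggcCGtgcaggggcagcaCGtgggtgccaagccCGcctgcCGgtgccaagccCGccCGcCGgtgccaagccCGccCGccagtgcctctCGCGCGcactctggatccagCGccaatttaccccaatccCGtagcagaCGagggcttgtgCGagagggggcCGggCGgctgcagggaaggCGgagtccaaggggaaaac
SERPINB9: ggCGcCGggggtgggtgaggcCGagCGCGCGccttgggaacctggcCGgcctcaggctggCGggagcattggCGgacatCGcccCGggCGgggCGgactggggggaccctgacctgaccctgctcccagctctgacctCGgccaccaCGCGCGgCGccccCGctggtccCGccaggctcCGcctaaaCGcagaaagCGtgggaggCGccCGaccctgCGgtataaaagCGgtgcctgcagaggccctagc
EPHA3: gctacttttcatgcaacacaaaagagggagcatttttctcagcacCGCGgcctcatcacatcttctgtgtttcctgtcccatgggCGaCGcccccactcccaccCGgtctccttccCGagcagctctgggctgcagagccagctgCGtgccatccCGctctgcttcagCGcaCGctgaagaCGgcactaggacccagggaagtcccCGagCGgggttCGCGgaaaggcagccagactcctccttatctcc
TCEAL9: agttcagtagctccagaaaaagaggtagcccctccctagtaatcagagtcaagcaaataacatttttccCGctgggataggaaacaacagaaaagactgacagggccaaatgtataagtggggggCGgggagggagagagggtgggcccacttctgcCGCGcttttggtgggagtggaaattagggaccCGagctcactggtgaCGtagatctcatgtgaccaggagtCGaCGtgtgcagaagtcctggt

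The PAR arrays also fell into sets. On 47 genes the PAR array without drug of repetition A and the PAR SA100 array lay together at least 1 log2 unit beyond the other 3 PAR arrays, 38 of them higher and 9 lower, while the PAR array without drug of repetition B and that array of repetition A lay so on 20 genes. LINC02582, a long non-coding RNA gene, was at 7.05 and 5.74 on the first pair and at 1.48, 1.89 and 1.22 on the other PAR arrays. ZIK1, a zinc finger gene, was at 6.55 and 6.88 on that pair and at 3.09, 2.76 and 2.27 on the others. On both genes the PKR arrays lay with the other 3 PAR arrays, at 1.52, 1.78 and 1.75 for LINC02582 and at 2.41, 3.16 and 2.61 for ZIK1. PAR lomustine A and PAR SA100 also lay together on 50 genes, 48 of them lower. The 2 arrays of repetition B, without drug and with lomustine, did so on 29 genes, 24 of them higher. Their r over all genes, 0.987, was the highest of any pair of PAR arrays. The parental side of every difference below is thus a mean over arrays that differ among themselves on 20 to 50 genes for some pairs, and its part in each result was not tested.

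Over all arms, with the arm as a block, 0 of 17526 genes passed limma's test between PKR and PAR (0%), and the smallest adjusted p was 1. At an unadjusted p under 0.05 there were 420 genes (2.4%), 259 higher and 161 lower in PKR. Without the array titled PKR SA100 the count past the test was again 0, with a smallest adjusted p of 0.60, and 944 genes (5.39%) had an unadjusted p under 0.05. With the spread estimated on all 24 arrays and the array titled PKR SA100 left out, 0 passed, the smallest adjusted p was 0.099 and 807 genes (4.6%) had an unadjusted p under 0.05.

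EPHA3, an ephrin receptor gene, had the smallest p of that comparison and was low on all 3 PKR arrays. It was at 5.72 and 5.36 on PAR arrays without drug, 5.50 and 4.99 with lomustine and 5.19 with SA100, and at 3.51, 3.50 and 4.39 on the PKR arrays. The groups did not overlap in any arm, and PKR minus PAR was -1.59 (SE 0.24, limma, adjusted p = 1). Without the array titled PKR SA100 it was -1.89 (adjusted p = 0.60). The level was not particular to PKR, as EPHA3 lay at 2.46, 2.64 and 2.96 on PERK arrays, at 2.63, 2.46 and 4.35 on GCN2 arrays, at 1.83 to 2.86 on S51A arrays and at 5.43 to 6.46 on HRI arrays.

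PREX2, a gene of an exchange factor for the GTPase Rac, was at 5.73, 4.66, 4.53, 4.50 and 4.76 on the PAR arrays and at 3.33, 3.25 and 3.92 on the PKR arrays. PKR lay below every PAR array, by 1.37 on average (SE 0.27, adjusted p = 1). CCDC50, a gene of a ubiquitin-binding protein, was at 7.79, 7.86, 7.40, 7.34 and 7.51 against 6.78, 6.51 and 7.06, a difference of -0.81 (SE 0.15). CADM1, a cell adhesion gene, lay the other way, at 2.05, 2.13, 2.16, 1.89 and 2.17 on PAR arrays and 2.83, 2.74 and 2.82 on PKR arrays, a difference of 0.71 (SE 0.14). NCAM1, a neural cell adhesion gene, was at 2.76, 2.95, 2.60, 2.77 and 2.61 against 3.67, 3.31 and 3.19, a difference of 0.68 (SE 0.14). CADM1 lies below 2.42 on all 5 PAR arrays, so its difference is from a level with little or no signal. SFRP1, a secreted inhibitor of Wnt ligands, was at 3.76, 4.25, 3.47, 3.92 and 3.45 against 4.67, 4.68 and 4.46, a difference of 0.87 (SE 0.18). All 3 PKR arrays stood on 1 side of all 5 PAR arrays for these genes, and each adjusted p was 1. Without the array titled PKR SA100 the differences were -1.56 for PREX2, -0.95 for CCDC50, 0.73 for CADM1, 0.72 for NCAM1 and 0.82 for SFRP1 (limma, adjusted p = 0.89 each). The medians of the S51A, HRI, GCN2 and PERK arrays were 3.59, 3.82, 3.43 and 3.58 for PREX2, all below every PAR array. They were 7.32, 7.10, 7.15 and 6.18 for CCDC50, 2.20, 2.68, 2.54 and 2.81 for CADM1, and 2.56, 2.78, 2.69 and 4.04 for NCAM1. On each of PREX2, CCDC50, CADM1 and NCAM1, PERK stood on the same side of PAR as PKR, so these levels were not particular to PKR.

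The arms were then set side by side. Without drug, PKR lay outside both PAR arrays by at least 1 log2 unit from their mean on 49 genes higher (0.28%) and 197 lower (1.12%). Of the 49, 36 (73.5%) were also above PAR with lomustine and 17 (34.7%) with SA100, where 57.9% and 54.5% of the genes tested were above PAR. Of the 197, 148 (75.1%) were also below PAR with lomustine and 72 (36.5%) with SA100, where 42.1% and 45.5% of the genes tested were below it. With lomustine, PKR lay outside both PAR arrays by that margin on 57 genes higher (0.325%) and 56 lower (0.32%). Of these, 46 (80.7%) and 41 (73.2%) kept their side without drug, where 40.1% of the genes tested were above and 59.9% below PAR, and 25 (43.9%) and 18 (32.1%) with SA100. On the array titled PKR SA100 there were 204 genes higher (1.16%) and 90 lower (0.514%) than on PAR SA100 by at least 1, and 51 (25%) and 61 (67.8%) of them kept their side without drug. The other lines are given beside these: for GCN2, of 37 genes higher and 88 lower without drug, 27 (73%) and 54 (61.4%) kept their side with SA100, where 53.2% and 46.8% of the genes tested lay on those sides. For PERK, of 70 and 256, 37 (52.9%) and 102 (39.8%) did, where 53.0% and 47.0% of the genes tested did. All these counts share the PAR arrays, and the difference between lines was not tested.

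**Figure D3:**
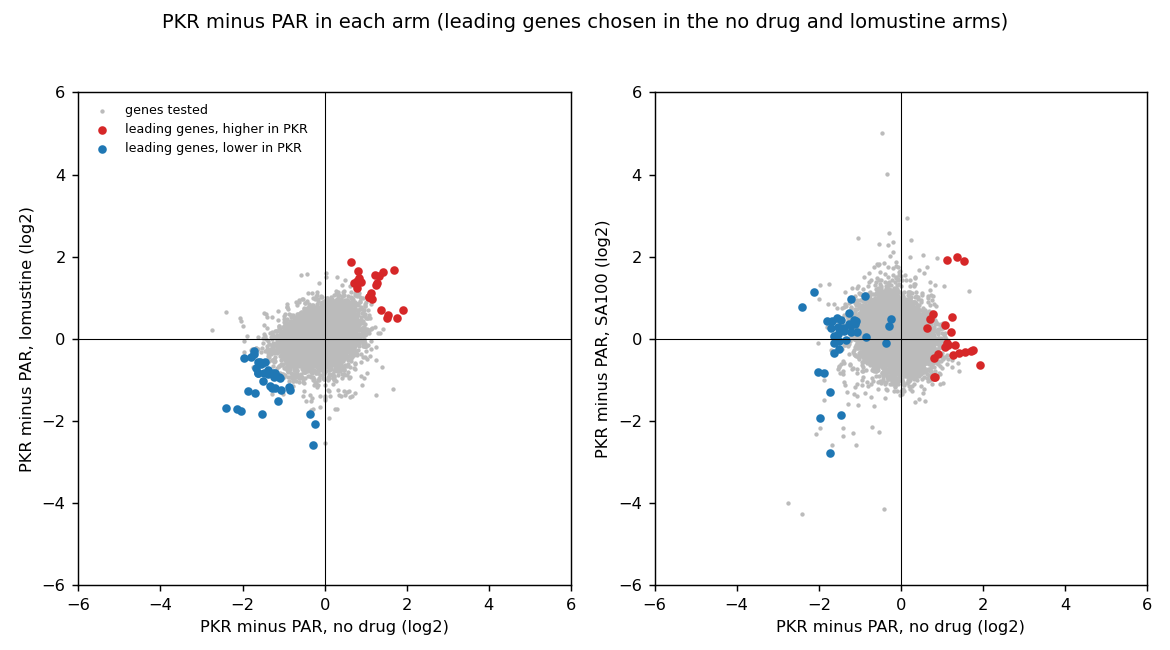
PKR minus PAR (log2) for each gene tested, without drug on the x axis and with lomustine (left) or SA100 (right) on the y axis; red and blue mark the 23 and 37 genes chosen for their level in the no drug and lomustine arms, which puts them in their corners on the left. On the right their medians with SA100 are -0.16 and 0.25.

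On the first 2 PKR arrays, 23 genes lay above (0.131%) and 37 below (0.211%) both PAR arrays of each arm, with a mean difference of at least 1. This rule was set after values were seen, so the differences in these 2 arms are a description. Just inside it were TOX (1.02) and FASTKD2 (-1.01), and just outside it TLE1 (0.998) and MIR4660 (-0.998). The SA100 arm was not used: there, 9 of the 23 lay above PAR, with a median of -0.16, and 12 of the 37 lay below it, with a median of 0.25, against a median of 0.04 over the genes tested. Of the 60, 7 kept their side by at least 1 with SA100.

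SERPINB9, an inhibitor of granzyme B, led the lower genes. It was at 6.56 and 6.23 on PAR arrays without drug, 4.89 and 5.38 with lomustine and 5.97 with SA100. It was at 3.99 and 3.45 on the first 2 PKR arrays, below every PAR array, and at 6.73 on the array titled PKR SA100, above every PAR array. PERK had 3.27, 2.90 and 5.60 and GCN2 6.81, 6.53 and 6.58. The array titled PKR SA100 thus lay near the GCN2 level, and the first 2 PKR arrays near the PERK arrays of their arms. The PERK line was itself higher with SA100 than in its other arms. SERPINB9 was the 1 gene on which PKR and PERK together lay at least 1 log2 unit beyond all other arrays in both arms, and there was no such gene for PKR alone or PERK alone.

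Further lower genes are given singly. KITLG, the gene of stem cell factor, was at 4.04, 4.64, 2.85, 3.90 and 2.80 on the PAR arrays and at 2.88, 2.55 and 3.26 on the PKR arrays. ANXA2, a membrane-binding annexin gene, was at 4.42, 4.52, 4.38, 3.54 and 3.93 against 3.41, 2.71 and 4.08. SDC2, a heparan sulfate proteoglycan gene, was at 7.26, 7.05, 7.47, 6.55 and 7.06 against 6.04, 6.08 and 7.41. On these 3 genes the array titled PKR SA100 lay above PAR SA100 and the other PKR arrays below PAR in their arms. MT1M, a metallothionein gene, was at 5.78 and 5.26 on PAR arrays without drug and 3.75 and 4.69 with lomustine, against 3.89 and 3.40 on the PKR arrays, and with SA100 it was at 7.97 in PAR and 8.04 in PKR. APOBEC3C, a cytidine deaminase gene of antiviral defence, was at 3.50, 5.12, 4.96, 4.94 and 3.23 on the PAR arrays and at 2.79, 3.13 and 3.18 on the PKR arrays.

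Among the higher genes, MAP2, a neuronal microtubule gene, was at 2.61 and 4.39 on PAR arrays without drug, 2.92 and 3.85 with lomustine and 2.57 with SA100, and at 4.75, 4.69 and 3.10 on the PKR arrays. EYA2, a transcription cofactor and phosphatase gene, was at 2.91, 3.02, 2.85, 3.26 and 3.31 against 4.09, 4.17 and 3.21. PRMT8, a neuronal arginine methyltransferase gene just under the margin, was at 2.50, 2.53, 2.37, 2.57 and 2.61 against 3.45, 3.47 and 2.44. On EYA2 and PRMT8 the array titled PKR SA100 was below PAR SA100. With all 24 arrays and without that array, PRMT8 and TLE1 had the smallest adjusted p (limma, 0.099), and EYA2, GABRQ and EBF1 followed at 0.10. PERK arrays had 3.38, 3.38 and 3.29 of PRMT8 and 4.16, 4.35 and 4.26 of EYA2, near the first 2 PKR arrays. GCN2 arrays had 2.39, 2.55 and 2.68 of PRMT8 and 3.99, 4.29 and 3.71 of EYA2, so EYA2 lay above the PAR arrays there too. Among the 60 genes were 6 of 226 tested 5S ribosomal RNA copies, 4 higher and 2 lower, and 5 of 158 small nucleolar RNAs, 1 higher and 4 lower. Over all 17526 genes tested, 23 were higher (0.131%) and 37 lower (0.211%). Copies of such RNAs share sequence, so they are not separate measurements, and single copies are uncertain.

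**Figure D4:**
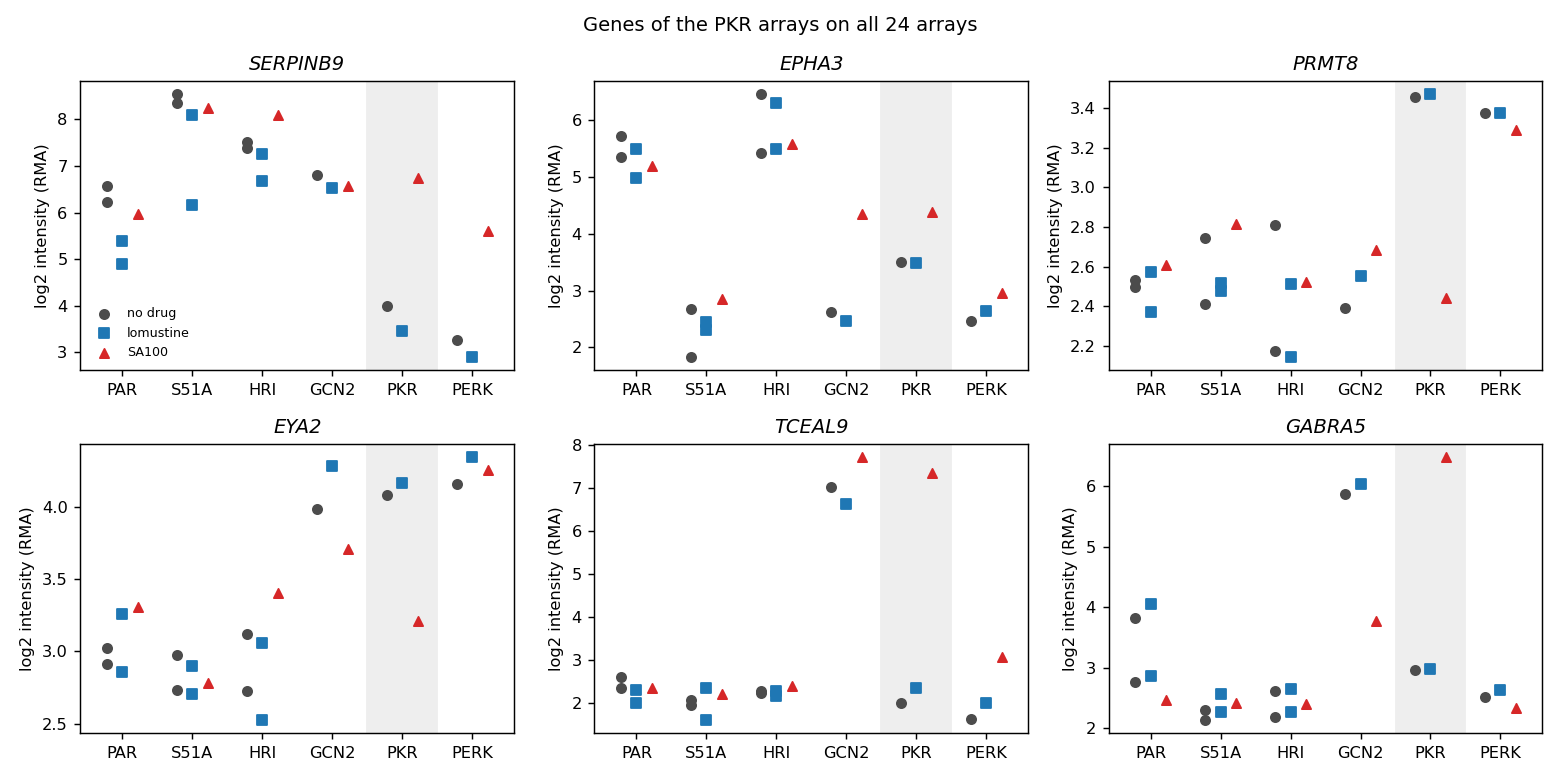
Log2 intensity (RMA) of 6 genes on each of the 24 arrays, by line and arm; each point is 1 array and the PKR line is shaded. On SERPINB9 and PRMT8 the first 2 PKR arrays lie near PERK, on EYA2 near PERK and GCN2, and on TCEAL9 and GABRA5 the array titled PKR SA100, at 7.35 and 6.49, lies apart from them.

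Of the 7 genes that kept their side by at least 1 with SA100 too, 6 had a PAR level that differed between the pair of PAR arrays named above and the other 3. TOX, a nuclear protein gene, was at 4.76 and 5.08 on that pair, at 7.25, 7.18 and 7.27 on the other 3, and at 7.53, 7.73 and 6.98 on the PKR arrays. F3, the tissue factor gene, was at 6.49 and 6.43 on that pair, at 3.67, 3.72 and 3.99 on the others, and at 3.11, 3.40 and 4.49 on the PKR arrays. INA, a neuronal intermediate filament gene, was at 5.41 and 5.19, at 6.60, 6.90 and 6.14, and at 7.37, 7.22 and 7.18. On ESRG and PCDHB3 that pair was likewise the highest of the PAR arrays, and on IGFBPL1 the lowest. FASTKD2, a mitochondrial RNA-binding protein gene, was the exception, at 4.69, 4.24, 3.08, 3.95 and 3.74 on the PAR arrays and 3.02, 2.95 and 1.89 on the PKR arrays. Its GCN2 levels of 2.17, 2.11 and 1.60 were lower than those of the first 2 PKR arrays.

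The lists of PKR biology held 0 genes past the test. Of 20 genes of the eIF2-alpha kinases, their substrate and regulators of PKR, 8 lay above and 12 below PAR, with a median of -0.05, against -0.002 over all genes tested, and without the array titled PKR SA100 their median was -0.13. PPP1R15A, the stress-induced phosphatase subunit GADD34, had the smallest p, at 4.25, 4.14, 5.29, 5.12 and 6.04 on the PAR arrays and 3.85, 4.97 and 5.89 on the PKR arrays. Of 43 tested genes of double-stranded RNA sensing and the interferon response, 23 lay above and 20 below PAR, with a median of 0.01 (-0.02 without that array) and 0 at an unadjusted p under 0.05. Of the 32 promoters of the list in the table, 15 hold the interferon-stimulated response motif GAAANNGAAA on either strand within the 250 bases before the start. Of the 12832 tested genes with a promoter there, 286 do (2.23%). EIF2AK2 holds no whole copy in this window. Its window ends in gaaaac, which could begin the motif, and the bases after the start were not searched. Whether EIF2AK2 has a copy across that edge was thus not tested. HERC6, an interferon-induced gene, was at 4.60, 4.89, 4.04, 4.55 and 4.20 against 4.03, 4.0 and 4.39, a difference of -0.31 (SE 0.20), which was -0.50 (SE 0.22) without the array titled PKR SA100. NF-kB subunits, inhibitors and targets lay above PAR in 17 of 22 genes, with a median of 0.07 (0.09 without that array), and the integrated stress response below it in 23 of 33, with a median of -0.09 (-0.13 without it). No gene of either list reached an unadjusted p of 0.05.

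Stress and growth lists gave the same count of 0 past the test. Heat shock genes lay below PAR in 13 of 15 (median -0.10), cytosolic ribosomal protein genes in 42 of 53 (median -0.10), cholesterol synthesis genes in 14 of 18 (median -0.13) and small nucleolar and Cajal body RNAs in 102 of 158 (median -0.12). These directions turned with the arm: without drug, with lomustine and with SA100 the medians were -0.22, -0.16 and 0.11 for heat shock genes, -0.20, -0.15 and 0.07 for ribosomal protein genes, and -0.20, -0.30 and 0.25 for the small RNAs. For cholesterol synthesis they were -0.31, 0.07 and -0.01. The medians over all genes tested were -0.08, 0.05 and 0.04, and those of 7480 autosomal genes with a mean level of at least 4 were -0.22, 0.03 and 0.17. The heat shock, ribosomal protein and small RNA lists thus lay on the side of the autosomal median without drug and with SA100, and opposite to it with lomustine. Cholesterol synthesis lay on its side without drug and with lomustine, and opposite to it with SA100. The part of the autosomal median was not tested. Without the array titled PKR SA100 the list medians were -0.16 for heat shock, -0.19 for ribosomal proteins, -0.11 for cholesterol synthesis, -0.29 for the small RNAs and -0.19 for immediate-early genes. The 33 immediate-early genes had a median of -0.02 and 1 at an unadjusted p under 0.05, JUN. The other lists, on oxidative stress, p53, stress granules, adhesion, matrix, growth factors, axon guidance, germline, imprinting, cell cycle, hypoxia, cell type markers, zinc fingers, HOX genes, protocadherins, histones and solute carriers, had medians between -0.05 and 0.11, and between -0.14 and 0.23 without the array titled PKR SA100. The markers of endothelial and neural cells held the highest of these, 0.11, with 12 of 15 above PAR, and 0.23 without that array; MAP2 is one of them. Without it the median of the p53 list went from 0.004 to -0.14, that of the HOX genes from 0.06 to 0.14 and that of all genes tested from -0.002 to -0.01. CDH2, the N-cadherin gene, was at 7.22, 7.08, 7.33, 6.85 and 6.43 on PAR arrays and 6.27, 6.07 and 6.34 on PKR arrays, a difference of -0.71 (SE 0.20). That of HOXD13 was -1.26 (SE 0.43). Without the array titled PKR SA100 they were -0.95 for CDH2 and -1.18 for HOXD13, and neither passed the test.

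The responses to the agents were compared next. EGR1, an immediate-early transcription factor gene, was at 4.25 and 4.75 in PAR and 4.16 in PKR without drug, at 7.87 and 8.69 in PAR and 7.65 in PKR with lomustine, and at 9.18 and 9.35 with SA100. The response of EGR1 to lomustine was smaller in PKR by 0.29 and that to SA100 larger by 0.51 (SE 0.86), neither past limma's test. JUN, the AP-1 subunit gene, was at 4.38 and 3.84 in PAR and 2.58 in PKR without drug, 6.21, 6.11 and 5.57 with lomustine, and 9.52 and 9.82 with SA100. Its SA100 response was larger in PKR by 1.83 (SE 1.36, adjusted p = 0.99). ATF4, the transcription factor of the integrated stress response, stayed within 8.11 to 8.78 on PAR arrays and was at 8.18, 8.43 and 8.57 on the PKR arrays. HMOX1, the heme oxygenase gene, was at 9.28 on the array titled PKR SA100 and 8.70 in PAR, so both SA100 arrays carried the raised level of that arm.

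For lomustine, 0 of 17526 genes (0%) passed limma's test for a different response in PKR than in PAR. At an unadjusted p under 0.05 there were 92 (0.525%). For SA100, 1 did (0.00571%; 364 at an unadjusted p under 0.05, or 2.08%), namely TCEAL9, with a difference in response of 5.47 (SE 0.49, limma, adjusted p = 0.0063). That call rests on the 1 array titled PKR SA100, whose levels of TCEAL9 are given above. In both response tests the spread came only from the duplicated PAR, S51A and HRI groups without drug and with lomustine. The PKR groups and the SA100 groups, with 1 array each, were assumed to vary like them. Without the PAR array of no drug, repetition A, PLAAT5 was called too (-5.27), and its PAR levels were 7.02, 3.92, 3.37, 3.32 and 6.44, high on the pair of PAR arrays named above. Without that of repetition B, SCGB3A2, a secretoglobin gene, was the 1 gene called for lomustine (4.39), at 5.96 and 4.28 on that pair and 2.28, 1.80 and 1.74 on the other PAR arrays, against 2.07, 2.27 and 1.96 on the PKR arrays.

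On the array titled PKR SA100, 10 genes were higher (0.0571%) and 2 lower (0.0114%) than on PAR SA100 by at least 2, with a difference under 1 in the other arms. These are TCEAL9, GABRA5, DAZL, VTRNA1-3, NEFL, TMT1A, APELA, NAV3, LRCH2, BST2, ZNF586 and RTP1, chosen by that value. For 6 of the 12 the nearest other SA100 array was HRI, for 5 GCN2 and for 1 PERK, while PAR SA100 lay at least 2 away by the choice. The nearest array was not always close: the distance was 2.72 for GABRA5, counted for GCN2, and 0.89 for NEFL, counted for HRI. It was at most 0.53 for the others. BST2, an interferon-induced antiviral gene, was at 7.30 on the array titled PKR SA100 and at 6.38 and 6.41 on the other PKR arrays. It was at 5.26 on PAR SA100 and 5.14 on the PAR array without drug of repetition A, and at 6.54, 7.31 and 6.81 on the other PAR arrays. RTP1 and ZNF586 were likewise apart on that pair of PAR arrays, at 4.11 and 4.13 and at 4.15 and 4.80, while the PKR arrays were at 2.47, 2.05 and 1.86 and at 2.64, 2.86 and 2.65. DAZL, a germ cell RNA-binding protein gene, was at 4.39, 4.60 and 5.66 on the PKR arrays and at 3.48, 5.00, 4.09, 4.86 and 2.71 on the PAR arrays.

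Against the mean of the 4 other edited lines, 4 genes passed limma's test (0.0228%; 534 at an unadjusted p under 0.05, or 3.05%), 1 higher and 3 lower in PKR. ITM2A, an integral membrane protein gene, was higher by 1.20 (SE 0.20, adjusted p = 0.029), and NLRP2, ZNF257 and ZNF729 were lower by 1.19, 1.38 and 1.30. All 4 were also called between PKR and S51A, and S51A alone stood apart on them: ITM2A was at 2.80 to 3.35 on S51A arrays and 7.02 to 8.72 on all others, and ZNF729 was at 6.64 to 7.78 on S51A arrays and 1.49 to 1.92 on all others. Without the array titled PKR SA100, ZNF729 was the 1 gene called (0.00571%; 892 at an unadjusted p under 0.05, or 5.09%). With S51A lomustine B left out, 21 were called, 20 of them lower in PKR.

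Line by line, PKR was least apart from PERK, with a median absolute log2 difference over genes of 0.099, against 0.11 to 0.14 for the other lines. On all 24 arrays, 0 genes passed limma's test between PKR and PERK, with or without the array titled PKR SA100. At an unadjusted p under 0.05 there were 240 and 270. Against PAR 0 passed in both fits too, with 532 and 807 at that p. The lines hold unequal numbers of arrays, on which these counts depend. Against S51A, 170 genes passed as higher and 258 as lower in PKR. Against HRI there were 8 and against GCN2 3, and without the array titled PKR SA100 they were 19 and 6. The 3 lower than in GCN2 were EGFR, HOOK1 and PSMB8, and without that array TCEAL9 (-4.78, SE 0.28, adjusted p = 2.6e-09) led them. FREM2, an extracellular matrix gene, was the 1 gene higher than in HRI, at 4.81, 5.36 and 4.83 on the PKR arrays and 2.85 to 3.67 on HRI arrays. SERPINB9 was lower than in HRI by 2.81 (SE 0.48, adjusted p = 0.037) and TERC, the telomerase RNA gene, by 2.11.

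No gene set PKR apart by a wide margin. In both the no drug and the lomustine arm, PKR was above all other arrays on 236 genes (1.35%) and below them on 105 (0.599%), and no gene reached a margin of 0.5 in both arms. The widest were LZTS1, with 0.36 above, at 3.35, 3.44 and 2.89 on the PKR arrays and 2.13 to 2.99 on all others, and GULP1, with 0.35 below, at 4.0 and 4.14 on those arrays and 5.46 on the array titled PKR SA100. On GULP1 the PERK arrays had 4.35, 4.50 and 5.65 and the GCN2 arrays 4.76, 4.63 and 5.83, so both were also highest with SA100. PAR SA100 was at 4.68, the lowest of the PAR arrays. For GCN2 the widest margin was 4.26, that of TCEAL9, and for PERK 0.64, that of GID8. Between PKR and PERK, 3 genes differed by at least 1 to the same side in both arms: FAM47B at 3.94 and 3.49 in PKR and 2.34 and 2.26 in PERK, PARM1 at 5.15 and 4.94 against 4.05 and 3.83, and PCMTD2 at 5.61 and 5.82 against 4.50 and 4.66. All 3 were higher in PKR, and on FAM47B the array titled PKR SA100, at 2.59, lay near the 2.49 of PERK SA100.

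Genes at the end of the X chromosome lay above PAR on the PKR arrays without drug and with lomustine. In the RefSeq order of genes, the stretch from MTMR1 to the end of X holds 66 tested genes, 27 of them with a mean level of at least 4. It was chosen after values were seen, so its counts describe it. On 25 of the 27 PKR was above both PAR arrays without drug and with lomustine, as on 488 of 7480 autosomal genes (6.52%), and on 21 it was above PAR SA100 too, as on 278 (3.72%). The median difference from PAR over the 27 was 0.40 without drug, 0.57 with lomustine and 0.29 with SA100, while that over the autosomal genes was -0.22, 0.03 and 0.17. Over all 66 tested genes it was 0.32 (56 above PAR), 0.42 (60 above) and 0.005 (33 above), so with SA100 the stretch as a whole was level with PAR SA100. HCFC1, a transcription cofactor gene, was at 8.56 and 9.08, 8.44 and 8.63, and 8.44 in PAR and at 9.48, 9.26 and 8.82 in PKR. IRAK1, a kinase gene of Toll-like receptor signalling, was at 5.73 and 6.06, 4.91 and 6.03, and 5.69 in PAR and at 6.62, 6.84 and 6.18 in PKR. ATP6AP1, a proton pump subunit gene, was at 8.25 and 8.21, 8.17 and 8.25, and 8.39 in PAR and at 8.67, 8.64 and 8.78 in PKR. On these 3 genes each PKR array lay above the PAR arrays of its arm.

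This stretch was not particular to PKR. In PERK its median difference from PAR was 0.58, 0.81 and 0.57 without drug, with lomustine and with SA100, in GCN2 0.29, 0.49 and 0.33, on the HRI arrays it was between 0.11 and 0.46, and on the S51A arrays between -0.59 and 0.03; these lines share the PAR arrays with PKR. The 27 such genes just before it on X had medians of -0.03, 0.42 and 0.54 on the PKR arrays. Other X genes with that mean level, 238 in all, had medians of -0.12, 0.21 and 0.41. With SA100 the end of X was thus not above the rest of X on the array titled PKR SA100.

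**Figure D5:**
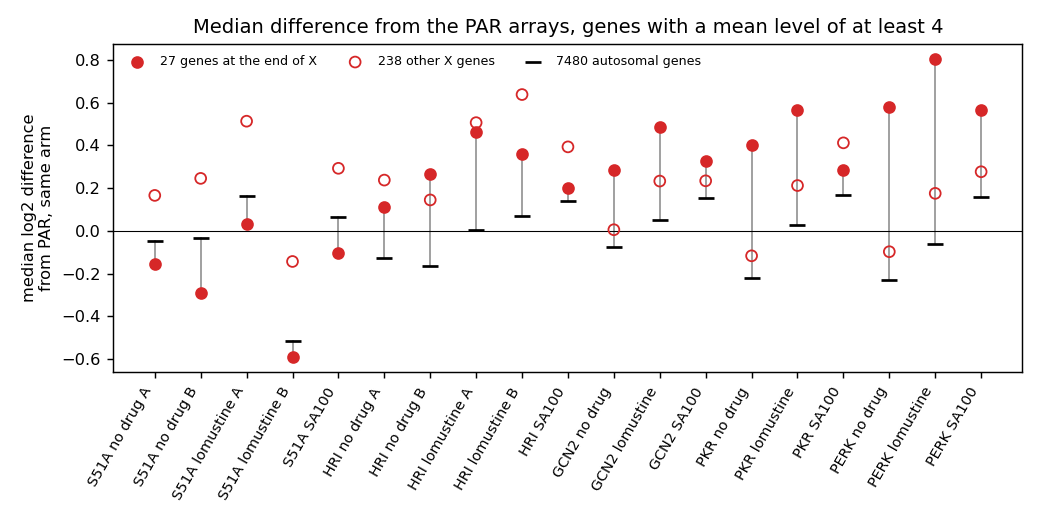
Median log2 difference from the PAR arrays of the same arm on each array of the edited lines, for 27 genes at the end of X (filled circles), 238 other X genes (open circles) and 7480 autosomal genes (bars), all with a mean level of at least 4. On the PKR arrays the filled circles are at 0.40, 0.57 and 0.29 without drug, with lomustine and with SA100.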

How the data were processed

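HAP1 RNA was hybridised to 24 Affymetrix arrays. The deposited values are log2 intensities; per the submitters' processing notes RMA and the R package affy were used, with versions and genome build not given in the sources used here. Of 53617 probe sets, 23871 were paired with exactly 1 symbol by the platform's annotation, 1842 with several and 27904 with none; 22569 matched a RefSeq gene by gene ID (90 symbols updated). The probe set with the highest mean stood for each of 22395 genes (632 had more than 1). Genes reaching the median of all values, 2.42, on at least 2 of 24 arrays were tested with limma 3.58.1 (R 4.3.3), Benjamini-Hochberg adjusted p under 0.05.

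PKR against PAR was fitted on 8 arrays with terms for line and arm; PKR against 4 edited lines on 24 arrays; responses in a fit of 18 groups. The scripts were tested on simulated data. Number of arrays limits precision. Genes named by rule are the eIF2-alpha kinases, EIF2S1, EGR1, ATF4, up to 15 called a direction, called neighbours, and up to 4 called or the 2 with the smallest p of a list, most of the latter not printed; others were chosen after values were seen. Gene order comes from RefSeq GRCh38.p14, and no coordinate of a probe set is given. Members and lists were chosen with earlier results of these data known. Alternatives were filters, probe-set choice, normalization, prior, samples and each array left out.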

Additional observations from a re-analysis of the deposited data

Results flagged for a closer look

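TCEAL9 met a rule for a closer look, because its SA100 response differed between PKR and PAR by limma's test of the difference. By the array titles, the response in PKR was larger by 5.47 (SE 0.49, limma, adjusted p = 0.0063). In PKR the level went from 2.00 without drug to 7.35 on the array titled PKR SA100, which may not match its line. In PAR it went from 2.59 and 2.33 to 2.35. The GCN2 arrays had 7.01, 6.61 and 7.72 without drug, with lomustine and with SA100. Whether the difference came with the agent or with the line of that array was not tested. The call rests on 1 array per line in the SA100 arm. Fitted on the 8 PAR and PKR arrays alone, the difference had the same size and an adjusted p of 0.36 (limma). No group held 4 arrays, so arrays were not tested for standing apart within a group.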

How the results depend on the processing

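The count of genes past the test between PKR and PAR was 0 in the fit of all arms under no filter, a stricter filter, the mean of all probe sets, repeated quantile normalization, centring on array medians, a robust prior with a trend, all 24 arrays, and each of 8 arrays left out in turn (0 to 0); unadjusted, quantile normalization gave 696 genes under p of 0.05. With the SA100 arm alone it was 1, TCEAL9. Against the other edited lines the count of 4 became 1 with the stricter filter, 8 after quantile normalization and 1 with PAR among the other lines, and 1 to 21 with an array left out: 21 without S51A lomustine B, 2 without the PKR array of no drug, 1 without the PKR array of lomustine and 1 without the array titled PKR SA100. The lomustine response gave 0 to 1 genes with a PAR array left out. The SA100 response gave 1 to 2 with one left out, and 0 with the PAR and PKR arrays alone, where fewer arrays estimate the spread. Causes of the other changes were not tested. Between PKR and PAR on the 8 arrays, leaving out PAR SA100 and leaving out PKR SA100 gave the same fit, so these are not separate checks. Of the PKR minus PAR values of named genes, 2239 moved by less than the spread between arrays under an alternative and 169 by more. No called gene changed direction under the alternatives run; ITM2A, NLRP2 and ZNF257 missed the threshold under 17 in all and TCEAL9 under 1. With 1 PKR array per arm, spread within the PKR line in an arm could not be measured. No paired analysis was possible because the PKR arrays carry no repetition letter that the PAR arrays share.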
